A study of Mus musculus with 88 samples.

Results

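The proteome of dendritic cells at 24 h after lipopolysaccharide (LPS) was compared with that of mock cells at the same time. They were grown with the cytokine GM-CSF from marrow of female mice of the strain C57BL/6J, and the labels name no other allele or agent and no age. LPS cells received rough, ultrapure LPS of the E. coli strain K12 at 100 ng per ml, and mock cells received no stimulus. The comparison used 4 mass spectrometry runs, which are LPS replicates 1 and 2 and mock replicates 1 and 2. Each run held an M and an H channel, so these are 8 of the 88 samples of the series. They were chosen by their labels alone (treatment, 24 h, trypsin). The labels' protocols put all cells into 1 pool just before the stimulus, and nothing in the labels tells whether replicates 1 and 2 are cultures of their own. The p-values below therefore measure a spread between runs that may be technical. The series' text describes a course that ends at 12 h, and it does not say how the 24 h samples were handled.

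LPS is sensed by Toll-like receptor 4 on dendritic cells, which then switch on cytokine genes through NF-kB and, through interferon, a wide set of antiviral genes. Over the following day the cells mature: they stop sampling their surroundings, display more co-stimulatory receptors and turn to presenting antigen to T cells. In pulsed SILAC, cells carry medium-heavy arginine and lysine (M) until the stimulus and heavy ones (H) afterwards, so M marks pre-existing protein, H marks new protein, and an unlabelled mix of cells (L) is the common yardstick. The loss of M from one protein includes both its breakdown and, for a secreted protein, its release. A lysate of many cells gives 1 value per protein, so fewer cells of a type and less of a protein per cell cannot be told apart.

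Values below are the M/L ratio (pre-existing), the H/L ratio (new) and their sum (total), each divided by a run factor, so that 1 is about the middle protein of a run. A change is the log2 ratio of LPS to mock cells, given ± its standard error. Of 6266 protein groups 5899 were kept, and the 24 h runs held 67191 to 80424 M/L peptide pairs and an H/L ratio for 3538 to 3902 groups. The run factors were 0.698 and 0.974 for LPS cells and 0.621 and 0.782 for mock cells. The LPS runs thus held 1.12 times (replicate 1) and 1.25 times (replicate 2) the protein of their mock partners per unit of light mix. Whether that is protein per cell or an uneven mixing cannot be told apart, and dividing by the factor removes it, so "fell" below means relative to the middle of the proteome. Both "rose" and "fell" compare LPS with mock cells at 24 h, and do not tell which of them changed over time. Where runs of the treatments are said not to overlap, this only describes their values. Many named proteins were picked for large called changes, so it adds no support to a call. The share of all proteins without overlap was not counted. Without the factor the median total protein was 0.25 higher (log2) in LPS cells, the median new protein 0.30 and the median pre-existing protein 0.17.

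Total protein differed for 1169 of 3095 groups tested (37.8%), by limma at an adjusted p under 0.05 and the same sign in both replicate pairs. Of these, 546 (17.6% of those tested) were higher and 623 (20.1%) lower in LPS cells. At least 2-fold differences were fewer, with 113 groups higher and 57 lower. New protein differed for 315 of 3095 groups (10.2%), 243 higher (7.85%) and 72 lower (2.33%). Pre-existing protein differed for 1190 of 3136 groups (37.9%), 321 higher (10.2%) and 869 lower (27.7%). The new over pre-existing ratio H/M, which needs no run factor, differed for 261 of 3095 groups (8.43%), 244 higher (7.88%) and 17 lower (0.549%). The fewer calls in new protein do not show that new protein changed less. Among the 623 groups lower in total, 577 (92.6%) were also called lower in pre-existing protein and 68 (10.9%) in new protein. Among the 546 higher in total, 216 (39.6%) were called higher in new protein and 223 (40.8%) in pre-existing protein. Total is the sum of the other quantities, so these shares describe its parts and are not independent support. With no run factor and replicates as a block, the split of total calls moved to 857 higher and 224 lower of 1081. When M and H were centred separately on their medians, new calls split into 196 higher and 104 lower, pre-existing calls into 578 higher and 722 lower, and H/M calls into 188 higher and 40 lower.

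Of the 4 proteins that mark the response in these cells, Ccl5, Irg1 and Acsl1 rose and Mmp12 fell. Ccl5, a chemokine that draws T cells and monocytes, had a total of 1.42 and 1.60 in LPS cells, against 0.226 and 0.277 in mock cells. New Ccl5 alone was 1.29 and 1.41 in LPS cells, against 0.0322 and 0.0914 in mock cells, and the LPS runs lay above the mock runs by more than the gap between replicates. Total Ccl5 rose by 2.59 ± 0.30 (adjusted p = 3.37e-07), a fold of 6.02. Pre-existing Ccl5 changed by -0.30 ± 0.70 and was not called (adjusted p = 0.780).

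Irg1 (now Acod1), the mitochondrial enzyme that makes itaconate in activated phagocytes, had a total of 1.39 and 1.44 in LPS cells, against 0.186 and 0.190 in mock cells. The replicates of each treatment nearly coincided, and the treatments did not overlap. Total Irg1 rose by 2.91 ± 0.14 (adjusted p = 5.52e-14) and new Irg1 by 4.08 ± 0.28 (adjusted p = 3.36e-10). Its pre-existing form rose too, with 0.206 and 0.198 in LPS cells, against 0.120 and 0.113 in mock cells (log2 0.80 ± 0.10, adjusted p = 1.62e-06). Acsl1, which activates long-chain fatty acids, had a total of 1.58 and 1.65 in LPS cells, against 0.266 and 0.285 in mock cells, with no overlap, and rose by 2.56 ± 0.07 (adjusted p = 1.44e-18). The new share of Acsl1 was 84.6% and 84.2% in LPS cells, against 30.1% and 23.1% in mock cells. These mock shares include background of the H channel. New Acsl1 was 0.0841 and 0.0828 in mock cells, against 0.0739 and 0.0631 at 0 h, before the heavy label.

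Mmp12, the macrophage elastase, ran the other way, with a total of 0.517 and 0.546 in LPS cells, against 2.51 and 2.66 in mock cells. Its total changed by -2.28 ± 0.14 and its new form by -3.09 ± 0.24 (adjusted p = 1.06e-11 and 3.12e-09). The new share of Mmp12 was 49.2% and 56.0% in LPS cells, against 81.5% and 82.5% in mock cells, so most Mmp12 of mock cells was made after the switch. Pre-existing Mmp12 fell (log2 -0.78 ± 0.28, adjusted p = 0.0290). That call was lost without LPS replicate 2 (-0.36, adjusted p = 0.438), mock replicate 1 (adjusted p = 0.141) or mock replicate 2 (adjusted p = 0.0568), and summed intensities gave 0.11.

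**Figure D1:**
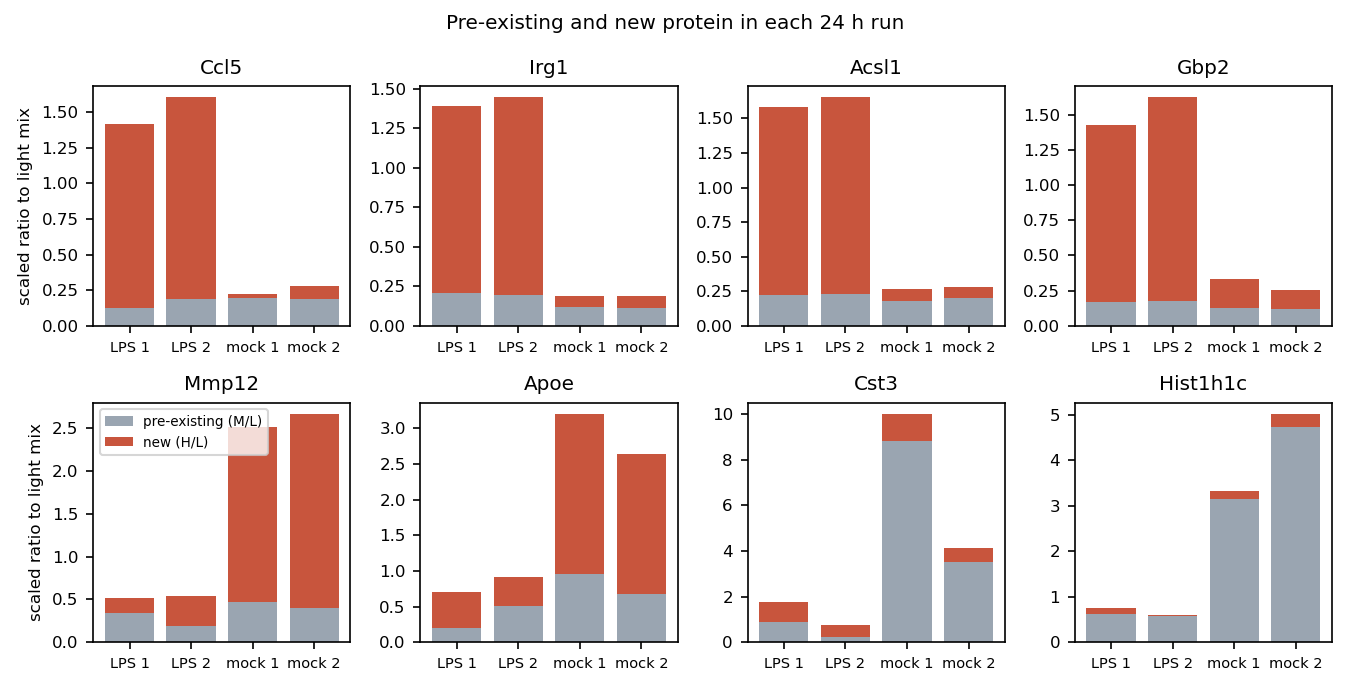
Stacked bars give the scaled ratio to the light mix of 8 proteins in each 24 h run, pre-existing (M/L) in grey and new (H/L) in red, with LPS replicates 1 and 2 left of mock replicates 1 and 2 and a separate axis from 0 for each protein. For Ccl5, Irg1, Acsl1 and Gbp2 the LPS bars are mostly new protein, for Mmp12 and Apoe the mock bars are, and for Cst3 and Hist1h1c the tall mock bars are mostly pre-existing protein.

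Interferon-stimulated proteins rose together. Of 53 tested members of the interferon-stimulated list 44 rose in total, none fell and 9 were not called, with a median of 1.60 against 0.00 over all proteins. In the new fraction 41 rose and the median was 2.32, against 0.06 over all proteins, while in the pre-existing fraction 8 rose, 3 fell and the median was 0.01. Over all proteins tested 17.6% were higher and 20.1% lower in total protein. In new protein 7.85% were higher and 2.33% lower, and in pre-existing protein 10.2% and 27.7%. The counts of every list below stand beside these same shares. The RNA sensor Ddx58 (RIG-I) had a total of 1.49 and 1.69 in LPS cells, against 0.336 and 0.341 in mock cells, a rise of 2.23 ± 0.12 (adjusted p = 6.57e-13). Gbp2, a GTPase that attacks vacuoles of pathogens, had 1.43 and 1.62 in LPS cells, against 0.336 and 0.252 in mock cells, a rise of 2.39 ± 0.16 (adjusted p = 3.18e-11). Neither overlapped between treatments.

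Other members of the list rose too. Sp100, a protein of nuclear bodies, appeared as 2 groups. The group with 3 unique peptides rose by 2.75 ± 0.25 (adjusted p = 3.37e-07) and that with 11 by 1.07 ± 0.19 (adjusted p = 6.83e-05). New Oasl1, an oligoadenylate synthetase-like protein, was 1.25 and 1.31 in LPS cells, against 0.0804 and 0.116 in mock cells, and rose by 3.72 ± 0.48 (adjusted p = 5.38e-06). Ube2l6, which attaches the ubiquitin-like Isg15 to its targets, rose in total by 2.39 ± 0.57 (adjusted p = 0.00221). Dtx3l, a ubiquitin ligase, rose by 1.74 ± 0.11 (adjusted p = 1.82e-11), and Eif2ak2 (PKR), the kinase that halts translation when it meets double-stranded RNA, by 1.29 ± 0.14 (adjusted p = 1.39e-07). The nucleic acid sensor Zbp1 rose in the pre-existing fraction as well, by 1.29 ± 0.21 (adjusted p = 2.46e-05).

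Interferon-activated transcription factors are known to bind a repeated TTTC element, and 4 promoters are shown because the proteins of this list moved together. The letters TTTC, any 2 bases (NN) and TTTC were searched on both strands in the 250 bases before each start site of RefSeq's promoter table (GRCm38.p6). Of the 39 named genes called higher in new protein 32 were in that table, and 14 of these (43.8%) held the first motif, against 3.46% of all 27025 genes there. A match is a description of the sequence and not a measured site. The kB-like letters GGGA, any base (N) and TTTCC, which share TTTC with the first motif, were held by 1 of the 32 genes (Gbp5), and by 0.414% of all genes. Windows of 60 bases are written 5' to 3' on the strand of the gene, with 1 match to the letters or to their reverse complement in capitals. The windows of Ifit1 and Oas1a hold another match, left in lower case.
Ifit3, chr19:34583348-34583407, plus strand: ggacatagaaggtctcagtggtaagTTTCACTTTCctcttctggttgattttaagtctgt
Gbp2, chr3:142620579-142620638, plus strand: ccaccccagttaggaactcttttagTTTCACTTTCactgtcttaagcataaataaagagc
Ifit1, chr19:34640760-34640819, plus strand: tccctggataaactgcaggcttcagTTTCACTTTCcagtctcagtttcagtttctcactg
Oas1a, chr5:120907526-120907585, minus strand: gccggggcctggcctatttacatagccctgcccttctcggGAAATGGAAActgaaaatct
The proteins of the genes shown rose in the new fraction, Ifit3 by 3.09, Gbp2 by 3.02, Ifit1 by 2.86 and Oas1a by 2.55 on the log2 scale (adjusted p = 1.68e-05, 2.17e-07, 7.40e-08 and 1.06e-04). They were chosen for this display after their values were seen.

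Inflammatory mediators and NF-kB targets rose as well, 20 of 29 tested members in total and 21 in the new fraction, with medians of 0.77 and 1.78. Plaur, the urokinase receptor, was the 1 member that fell in total, and is named after its value was seen. Saa3, an acute-phase serum amyloid, had a total of 1.32 and 1.14 in LPS cells, against 0.281 and 0.142 in mock cells, and Gch1, which starts the synthesis of the nitric oxide synthase cofactor, had 1.87 and 2.05 in LPS cells, against 0.342 and 0.401 in mock cells. Neither overlapped, and they rose by 2.61 ± 0.51 and 2.40 ± 0.41 (adjusted p = 2.54e-04 and 4.93e-05). Sqstm1 (p62), the autophagy adaptor, rose by 1.49 ± 0.08 (adjusted p = 1.10e-12), Serpinb2, an inhibitor of plasminogen activation, by 1.23 ± 0.10 (adjusted p = 3.32e-10), and Ehd1, an endocytic recycling protein, by 1.00 ± 0.05 (adjusted p = 5.28e-13). The group listed as Gm20547 with complement factor B as its protein name had 2.39 and 2.29 in LPS cells, against 0.521 and 0.279 in mock cells, a rise of 2.62 ± 0.48 (adjusted p = 1.09e-04). Fpr2, a receptor for bacterial formyl peptides, had 2.54 and 2.14 in LPS cells, against 0.456 and 0.304 in mock cells, and rose by 2.65 ± 0.26 (adjusted p = 8.08e-08). The group listed as Gm4902 (current symbol Phf11b) rose by 2.74 ± 0.44 (adjusted p = 3.15e-05).

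Of 6 tested proteins of dendritic cell maturation 5 rose in total and in the new fraction, with a median total change of 0.72. Cd40, the receptor through which T cells license dendritic cells, had a total of 1.45 and 1.63 in LPS cells, against 0.345 and 0.119 in mock cells. The mock runs were unequal, yet both lay far below the LPS runs, and Cd40 rose by 2.93 ± 0.49 (adjusted p = 4.01e-05). Cd38, an ectoenzyme that consumes NAD, rose by 1.02 ± 0.14 (adjusted p = 2.62e-06), the adhesion receptor Icam1 by 0.77 ± 0.17 (adjusted p = 0.00106), and Cd274 (PD-L1), which restrains T cells, by 0.68 ± 0.21 (adjusted p = 0.0179). Cd274 had 1.10 and 0.925 in LPS cells, against 0.549 and 0.727 in mock cells. The total call for Icam1 was lost without mock replicate 2 (adjusted p = 0.0574), and that for Cd274 without LPS replicate 1 or mock replicate 1 (adjusted p = 0.130 and 0.174). Summed intensities gave -0.19 for Icam1.

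The antigen presentation lists moved apart. Of 14 tested proteins of MHC class I presentation 8 rose and 2 fell in total (median 0.73), and of 8 of MHC class II presentation none rose and 5 fell (median -0.57). B2m, the light chain of class I, had 1.43 and 1.42 in LPS cells, against 0.493 and 0.547 in mock cells, and rose by 1.46 ± 0.08 (adjusted p = 6.57e-13). The proteasome activator subunits Psme2 and Psme1 rose by 0.93 ± 0.06 and 0.74 ± 0.08 (adjusted p = 1.82e-11 and 1.96e-07), and the immunoproteasome subunit Psmb10 by 0.66 ± 0.06 (adjusted p = 2.05e-08). Calr and Pdia3, chaperones of the endoplasmic reticulum, were the class I members that fell, and are named after their values were seen.

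Among class II proteins Cd74, the invariant chain, had a total of 1.07 and 0.793 in LPS cells, against 1.58 and 1.40 in mock cells, and fell (log2 -0.69 ± 0.18, adjusted p = 0.00389). Its pre-existing part was 0.212 and 0.0981 in LPS cells, against 0.499 and 0.427 in mock cells. The total call was lost without LPS replicate 2 (adjusted p = 0.102). The thiol reductase Ifi30 changed by -0.74 ± 0.13 (adjusted p = 1.00e-04). The cathepsin Ctss and the protease Lgmn, which cut antigen and invariant chain in endosomes, changed by -0.58 ± 0.07 and -1.15 ± 0.12 (adjusted p = 3.67e-07 and 3.34e-08). The chains themselves, H2-Aa and H2-Ab1, changed by 0.16 and -0.09 and were not called, and these 2 were named after their values were seen. With no run factor the median of the class II list was -0.33 and limma called 0 of the 8, 1 being lower at an unadjusted p under 0.05.

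Receptors that take up particles or sense microbes went both ways, with 7 of 21 tested higher and 9 lower in total. Over all proteins tested 17.6% were higher and 20.1% lower. Marco, a scavenger receptor for bacteria, had the highest total change called, with a total of 2.16 and 1.92 in LPS cells, against 0.277 and 0.195 in mock cells. It rose by 3.13 ± 0.39 (adjusted p = 9.87e-05), a fold of 8.76. Clec4d, a lectin receptor for fungi and mycobacteria, rose by 1.28 ± 0.16 (adjusted p = 1.12e-06). Cd36, the receptor for oxidised lipoproteins, had 0.789 and 0.678 in LPS cells, against 2.72 and 2.03 in mock cells, and fell (log2 -1.68 ± 0.17, adjusted p = 4.25e-08). Lrp1, an endocytic receptor for lipoproteins, had 0.661 and 0.603 in LPS cells, against 1.41 and 1.37 in mock cells, and fell (log2 -1.14 ± 0.07, adjusted p = 3.65e-12). Without the run factor the median of this list was 0.12, against -0.13 with it, so no direction is given for it as a whole.

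Lipid handling and the secreted products of resting macrophages were lower. Of 25 tested proteins of lipid metabolism and uptake 15 fell and 4 rose in total (median -0.57), and of 11 secreted macrophage proteins 10 fell and none rose (median -1.11). Apoe, the lipid carrier on both lists, had 0.704 and 0.920 in LPS cells, against 3.20 and 2.65 in mock cells, and fell (log2 -1.86 ± 0.21, adjusted p = 1.29e-07). C1qb, a chain of complement C1q, had 0.440 and 0.462 in LPS cells, against 1.52 and 1.49 in mock cells, and fell (log2 -1.74 ± 0.11, adjusted p = 6.45e-12). Lysozyme Lyz2 had 0.612 and 0.578 in LPS cells, against 1.27 and 1.31 in mock cells, and fell (log2 -1.11 ± 0.06, adjusted p = 2.53e-13). No mock run of these overlapped an LPS run. Fabp4, a fatty acid carrier, had new values of 0.117 and 0.129 in LPS cells, against 0.398 and 0.376 in mock cells, a new change of -1.66 ± 0.34 (adjusted p = 0.00141) and an H/M change of -1.36 ± 0.32 (adjusted p = 0.00633). The H/M call was lost without LPS replicate 2 or mock replicate 1 (adjusted p = 0.0560 and 0.0753). The lipid droplet coat protein Plin3 rose by 0.72 ± 0.06 (adjusted p = 2.05e-09).

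Lysosomal hydrolases fell together. Of 44 tested, 36 fell in total, 8 were not called and none rose, with a median of -0.91. The same direction stood in both parts of the protein, with 39 of 44 lower in the pre-existing and 18 of 44 in the new fraction (medians -0.95 and -0.82). Lipa, the acid lipase that frees cholesterol from lipoproteins, had 0.559 and 0.569 in LPS cells, against 1.49 and 1.43 in mock cells, and fell (log2 -1.37 ± 0.09, adjusted p = 3.59e-11). The changes were -1.36 ± 0.06 for the nuclease Pld3, -1.07 ± 0.05 for the mannosidase Man2b1 and -1.08 ± 0.06 for the saposin precursor Psap (adjusted p = 1.56e-14, 2.01e-14 and 1.70e-12). Cathepsin D (Ctsd), one of the most abundant proteins of mock cells, had 0.862 and 0.912 in LPS cells, against 1.67 and 1.84 in mock cells, and fell (log2 -0.99 ± 0.08, adjusted p = 2.00e-09). With no run factor the median was -0.67 and none was called by limma, 12 being lower at an unadjusted p under 0.05. With no factor and replicates as a block 35 of 44 were called lower.

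Mitochondrial proteins were lower. Of 55 tested subunits and assembly factors of oxidative phosphorylation 37 fell and none rose in total (median -0.60), and of 33 mitochondrial ribosomal proteins 22 fell and none rose (median -0.59). Of 25 proteins of the itaconate and TCA cycle list 18 fell and Irg1 alone rose (median -0.54). Sdhb, the iron-sulfur subunit of succinate dehydrogenase, had 0.745 and 0.716 in LPS cells, against 1.41 and 1.44 in mock cells, and fell (log2 -0.96 ± 0.07, adjusted p = 3.68e-11). Pdha1 and Pdhb, subunits of pyruvate dehydrogenase, changed by -0.66 ± 0.06 and -0.67 ± 0.07 (adjusted p = 8.97e-09 and 3.83e-08). The complex I subunits Ndufs8 and Ndufa12 changed by -0.62 ± 0.07 and -0.76 ± 0.08, and Uqcrh of complex III by -0.73 ± 0.07 (adjusted p = 1.13e-07, 3.29e-07 and 3.00e-08). In the pre-existing fraction 42 of 56 oxidative phosphorylation proteins and 30 of 35 mitochondrial ribosomal proteins fell, and in the new fraction 2 of 55 and 0 of 33 did by limma (1 of the 33 at an unadjusted p under 0.05), with medians of -0.44 and -0.51. Over all proteins tested 27.7% were lower in pre-existing and 2.33% in new protein. The median standard error over all proteins was 0.46 in new and 0.12 in pre-existing protein. These counts therefore do not place the mitochondrial change in pre-existing protein alone. Among the ribosomal proteins Mrpl12 changed by -0.65 ± 0.08 and Mrpl55 by -0.86 ± 0.13 (adjusted p = 1.43e-06 and 2.14e-05).

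The size of the mitochondrial change depends on the scale. With no run factor the medians were -0.36 for oxidative phosphorylation, -0.35 for the mitochondrial ribosome and -0.30 for the TCA list, still below 0. Limma then called 0 of 55 oxidative phosphorylation and 0 of 33 mitochondrial ribosomal proteins (0 and 0 at an unadjusted p under 0.05), and in the TCA list 1 member, higher. With no factor and replicates as a block 21, 6 and 11 members were called lower. The deposited normalised ratios called 17, 0 and 11 lower by limma (1 of the ribosomal proteins at an unadjusted p under 0.05), with medians of -0.62, -0.51 and -0.54. The glutamate enzymes of the arginine list, also mitochondrial, were lower too, with Glud1 at -0.68 ± 0.09, Got2 at -0.65 ± 0.08 and Oat at -0.54 ± 0.08 (adjusted p = 8.85e-07, 3.47e-07 and 5.83e-06). From the same list Ass1, which rebuilds arginine, rose by 0.63 ± 0.05 (adjusted p = 1.56e-09), with new Ass1 of 0.466 and 0.456 in LPS cells, against 0.0936 and 0.0898 in mock cells.

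**Figure D2:**
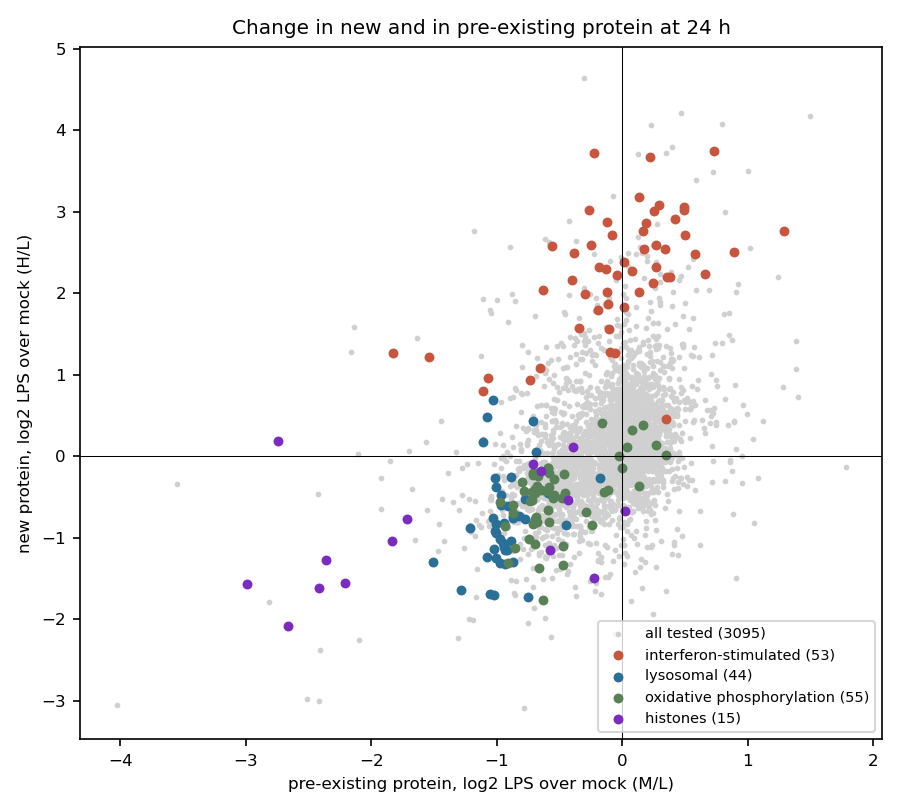
Each point is a protein, with the log2 change of LPS over mock in pre-existing protein (M/L) across and in new protein (H/L) up, for all 3095 tested groups in grey and 4 lists in colour. Interferon-stimulated proteins spread upward near 0 on the pre-existing axis, while lysosomal, oxidative phosphorylation and histone proteins lie to the left.

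Linker histones and Impdh1 were among the proteins furthest below mock cells. Impdh1, which makes guanine nucleotides, had a total of 0.341 and 0.376 in LPS cells, against 4.36 and 6.13 in mock cells (log2 -3.85 ± 0.37, adjusted p = 9.59e-08). Its pre-existing part was 0.262 and 0.286 in LPS cells, against 3.76 and 5.30 in mock cells. At 12 h its total was 0.400 and 0.537 in LPS cells, against 0.859 and 1.55 in mock cells, so the gap at 24 h went mostly with higher mock values. Why pre-existing Impdh1 of mock cells at 24 h was above their total at 12 h was not tested. Of 15 tested histones 12 fell and none rose in total, with a median of -1.61. The linker histone Hist1h1b had 0.700 and 0.541 in LPS cells, against 3.87 and 5.12 in mock cells, and fell (log2 -2.85 ± 0.20, adjusted p = 7.54e-11). At 12 h it had 0.913 and 0.741 in LPS cells, against 1.85 and 1.68 in mock cells, so its mock values were higher at 24 h too. New Hist1h1b made up 0.220 and 0.169 of the mock totals at 24 h. Why pre-existing Hist1h1b of mock cells at 24 h was above their total at 12 h was not tested. Hist1h1c, Hist1h1d, Hist1h1e and H1f0, of the same family, changed by -2.60 ± 0.15, -2.36 ± 0.15, -2.17 ± 0.17 and -2.18 ± 0.41 (adjusted p = 2.68e-12, 1.51e-11, 4.02e-10 and 1.50e-04). The core histone group Hist1h2ab had 0.802 and 0.911 in LPS cells, against 1.28 and 1.33 in mock cells, a change of -0.61 ± 0.14 (adjusted p = 0.00108). Over the 6 linker histones the scaled totals were 0.541 to 0.886 in LPS cells and 2.65 to 5.12 in mock cells, with no overlap. Per the labels' protocols, lysates were cleared by centrifugation before protein was measured, and the part of that step in the histone values was not tested.

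Cst3 (cystatin C), a secreted inhibitor of cathepsins, had a total of 1.75 and 0.782 in LPS cells, against 10.0 and 4.15 in mock cells. The replicates of each treatment differed by over 2-fold, the higher LPS value still lay below the lower mock value, and Cst3 was lower in LPS cells (log2 -2.46 ± 0.56, adjusted p = 0.00265). Its pre-existing part fell (log2 -3.55 ± 0.99, adjusted p = 0.00992), while its new part changed by -0.34 ± 0.34 and was not called (adjusted p = 0.730). The pre-existing call was lost without LPS replicate 2 or mock replicate 1 (log2 -2.66 and -2.89). Earlier totals of Cst3 in LPS cells were 1.42 and 0.891 at 9 h and 3.52 at 12 h (replicate 1 alone). Mock cells had 1.63 at 9 h (replicate 1 alone) and 1.63 and 0.779 at 12 h. New Cst3 made up 1.17 and 0.623 of the mock totals at 24 h. Why mock cells then held more pre-existing Cst3 than before was not tested. Lasp1, an actin-binding protein, was listed as 2 groups, of which the short one with 2 unique peptides fell (log2 -2.22 ± 0.42, adjusted p = 2.35e-04) and the one with 24 changed by 0.34 ± 0.06 (adjusted p = 7.30e-05). Cd97, an adhesion receptor, fell (log2 -2.17 ± 0.24, adjusted p = 1.11e-07).

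Translation factors, ribosomal proteins and the proteasome were slightly higher by their medians. Of 47 tested translation factors 27 rose and 2 fell in total (median 0.24), of 72 cytosolic ribosomal proteins 17 rose and 1 fell (median 0.15), and of 34 proteasome subunits 10 rose and none fell (median 0.16). Over all proteins tested 17.6% rose, and most ribosomal and proteasome proteins were not called. Eef2, the translocase of the elongating ribosome, had 1.02 and 1.09 in LPS cells, against 0.787 and 0.811 in mock cells, and rose by 0.40 ± 0.05 (adjusted p = 3.27e-06). Rpl23 and Rpl29 rose by 0.42 ± 0.06 and 0.65 ± 0.14 (adjusted p = 2.06e-06 and 5.76e-04), while Rpl14 fell (log2 -0.57 ± 0.11, adjusted p = 2.50e-04). The proteasome subunit Psma5 rose by 0.49 ± 0.07 (adjusted p = 7.26e-06). The run factor moves the median of total protein by 0.25, about as much as these shifts. With no factor the medians were 0.48, 0.39 and 0.40, and limma called 1, 0 and 0 members (1 of the ribosomal and 0 of the proteasome proteins at an unadjusted p under 0.05). The deposited normalised ratios called 6, 1 and 1 members higher.

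Of 15 tested glycolytic enzymes 7 rose and 1 fell in total, with a median of 0.16. Gapdh had 1.16 and 1.22 in LPS cells, against 1.02 and 1.06 in mock cells, and Hk3, a hexokinase of blood cells, rose by 0.33 ± 0.08 (adjusted p = 0.00194), whereas Hk2 fell (log2 -0.36 ± 0.10, adjusted p = 0.00406). Of 24 proteins of the pentose phosphate and NRF2 list 9 rose and 1 fell (median 0.07). Hmox1, which degrades haem, had 1.89 and 1.67 in LPS cells, against 0.758 and 0.863 in mock cells, and rose by 1.13 ± 0.09 (adjusted p = 9.48e-10). The peroxiredoxin Prdx1 and thioredoxin Txn rose by 0.75 ± 0.07 and 0.56 ± 0.07 (adjusted p = 2.87e-09 and 1.15e-06). Of 9 tested enzymes of sterol synthesis Fdps rose (-0.06 with the deposited normalised ratios) and Nsdhl fell, and of 18 replication proteins 2 rose and 1, the proliferation marker Mki67, fell (log2 -0.60 ± 0.13, adjusted p = 7.59e-04). Over all proteins tested 17.6% rose and 20.1% fell in total, and 7 of the 9 sterol and 15 of the 18 replication proteins were not called. The replication proteins that rose were Pcna and Smc2. The Pcna call was lost without LPS replicate 2 or mock replicate 1 (log2 0.25 and 0.23). The Smc2 call was lost without any 1 of the 4 runs at 24 h (log2 0.40 to 0.47). The Fdps call was lost without LPS replicate 2 or mock replicate 1 (adjusted p = 0.125 and 0.289), and the Nsdhl call without LPS replicate 2 or mock replicate 2 (adjusted p = 0.0587 and 0.0586). Without the run factor limma called 0 of the 15 glycolytic enzymes, 0 also at an unadjusted p under 0.05. The calls for Hk2 and Hk3 were lost without mock replicate 2 (Hk2, log2 -0.27) and LPS replicate 1 (Hk3, log2 0.24). Those for Gapdh and Pgk1 were lost without LPS replicate 2 (log2 0.16 and 0.19) or mock replicate 1 (0.16 and 0.20). That for Aldoa was lost without LPS replicate 2, mock replicate 1 or mock replicate 2, and that for Eno1 without any 1 of the 4 runs at 24 h.

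Of 51 tested actin and adhesion proteins 20 rose and 4 fell in total (median 0.12), against 17.6% and 20.1% over all proteins tested. The run factor moves the median of total protein by 0.25, more than this shift. Itga5, the fibronectin receptor chain, had 1.35 and 1.59 in LPS cells, against 0.423 and 0.457 in mock cells, and rose by 1.74 ± 0.20 (adjusted p = 2.03e-07). Plek, a substrate of protein kinase C, rose by 1.38 ± 0.09, Marcksl1, which links actin to the membrane, by 1.43 ± 0.12, and moesin (Msn) by 0.42 ± 0.06 (adjusted p = 1.64e-11, 1.01e-09 and 7.48e-06). The Plek group had 1 unique peptide. The integrin chain Itgax (CD11c) had 0.682 and 0.612 in LPS cells, against 1.34 and 1.30 in mock cells, and fell (log2 -1.03 ± 0.15, adjusted p = 1.04e-05), and its relative Itgam fell (log2 -0.31 ± 0.09, adjusted p = 0.00777), a call lost without LPS replicate 2 or mock replicate 1 (adjusted p = 0.0712 and 0.0846).

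**Figure D3:**
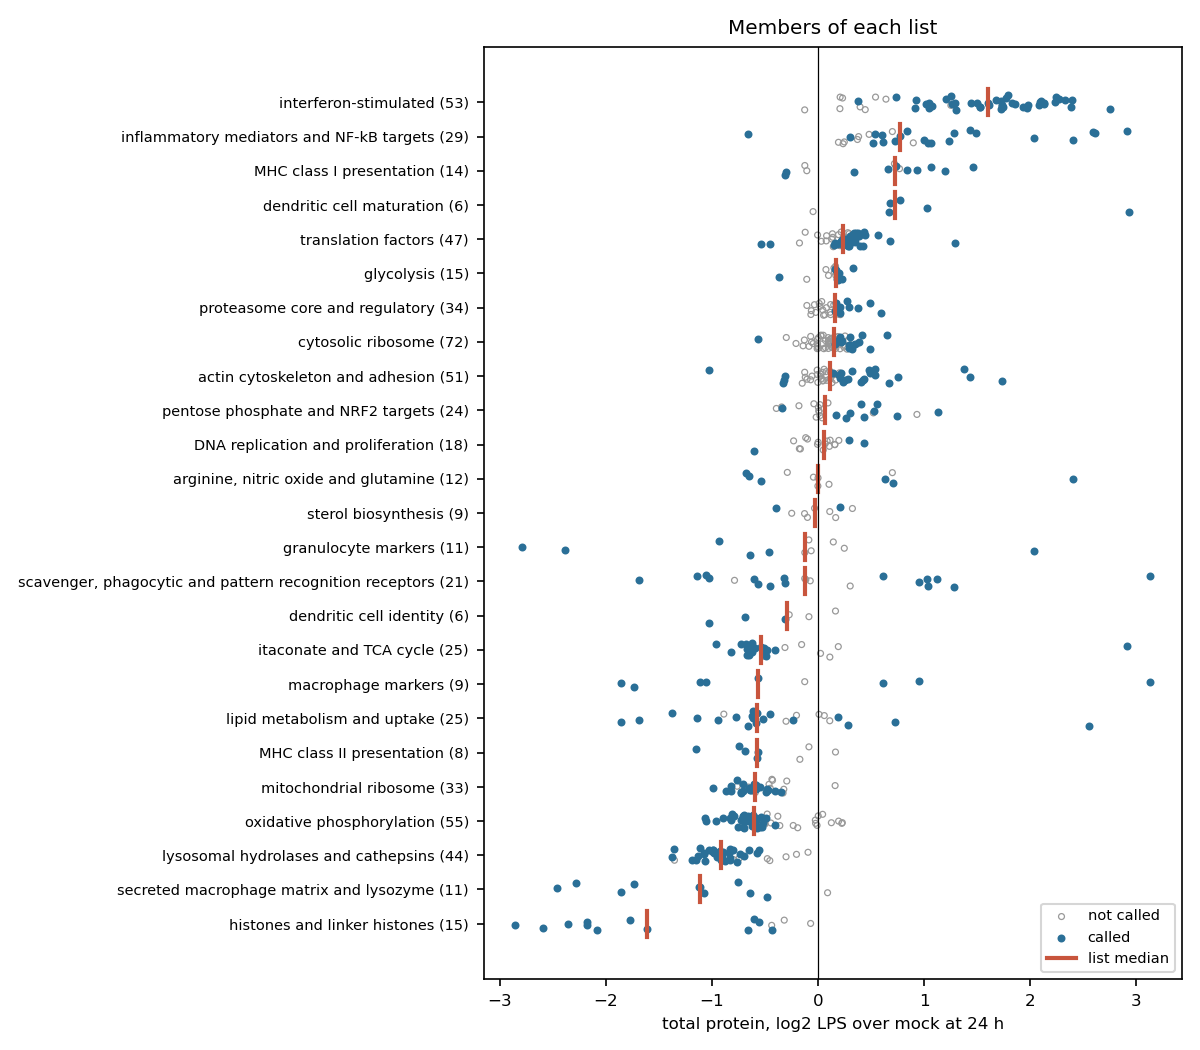
Each dot is a tested member of a list, placed by its log2 change of LPS over mock in total protein, filled where called and open where not, with the list median as a red bar and the number tested in brackets. Lists run from histones (median -1.61) at the bottom to interferon-stimulated proteins (median 1.60) at the top.

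As shares of the measured proteome, by iBAQ (intensity per theoretical peptide, which allows proteins to be set side by side), lists were set side by side in each run. Lysosomal hydrolases made up 2.30% and 2.30% of summed iBAQ in LPS cells, against 4.75% and 4.44% in mock cells, and histones 6.51% and 5.51% in LPS cells, against 10.00% and 8.42% in mock cells. Oxidative phosphorylation made up 1.82% and 1.83% in LPS cells, against 2.58% and 2.71% in mock cells. Interferon-stimulated proteins made up 0.88% and 0.92% in LPS cells, against 0.26% and 0.20% in mock cells. Lyz2 alone was 0.821% and 0.592% in LPS cells, against 1.71% and 1.13% in mock cells, and Ctsd 0.668% and 0.647% in LPS cells, against 1.49% and 1.13% in mock cells. Lyz2 ranked 16 and 28 by iBAQ in LPS cells, against 7 and 11 in mock cells, and Ctsd 24 and 24 in LPS cells, against 9 and 12 in mock cells. The peroxiredoxin Prdx5 ranked 18 and 12 in LPS cells, against 38 and 30 in mock cells, with 0.777% and 1.22% in LPS cells, against 0.485% and 0.540% in mock cells, and rose by 0.82 ± 0.07 (adjusted p = 3.44e-09).

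**Figure D4:**
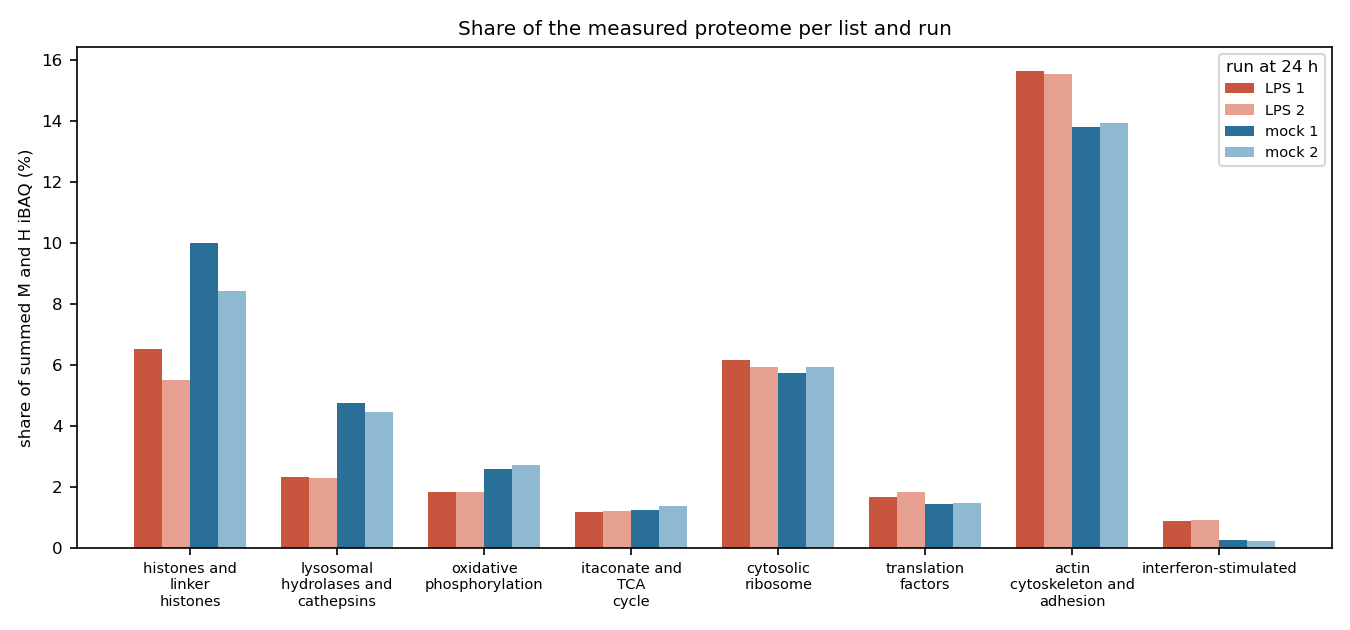
Bars give the share of summed M and H iBAQ, in percent, of 8 lists in each 24 h run, with both LPS runs left of both mock runs. Histones, lysosomal and oxidative phosphorylation proteins have lower bars in LPS cells, and interferon-stimulated and actin proteins higher ones.

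New protein took a modest part of most groups. The median share of H was 31.5% and 29.4% in LPS cells, against 28.6% and 27.7% in mock cells, and 601 and 564 of 3095 proteins were over 50% new in LPS cells, against 367 and 346 in mock cells. At 0 h, before the heavy label, the median share over the proteins of each run was already 14.2% and 13.1%. The shares given here therefore include background of the H channel, which was not subtracted. Among the highest H/M changes were Ccl5 (4.79 ± 0.87, adjusted p = 3.94e-04) and Nmes1 (3.96 ± 0.56, adjusted p = 2.19e-05), a small mitochondrial protein with new shares of 80.3% and 82.3% in LPS cells, against 29.6% and 15.7% in mock cells. Nmes1 had pre-existing values of 0.278 and 0.335 in LPS cells, against 0.662 and 0.723 in mock cells, a change of -1.18 ± 0.27 (adjusted p = 0.00110), and its total was 1.42 and 1.94 in LPS cells, against 0.928 and 0.873 in mock cells (log2 0.88 ± 0.22, adjusted p = 0.00302). S100a9, a calcium-binding protein of myeloid cells, went the other way, with new shares of 12.9% and 12.5% in LPS cells, against 27.1% and 27.1% in mock cells, and an H/M change of -1.36 ± 0.20 (adjusted p = 2.98e-05), while its total changed by -0.12 and was not called (adjusted p = 0.128). New S100a9 was 0.115 and 0.120 in LPS cells, near its values of 0.123 and 0.0643 at 0 h. Il16, a T cell attractant, and Hmha1 had H/M changes of -2.08 ± 0.46 and -1.06 ± 0.29 (adjusted p = 0.00348 and 0.0204). The call for total Nmes1 was lost without LPS replicate 2 (adjusted p = 0.0701), the Il16 call without mock replicate 1 (adjusted p = 0.0891), and the Hmha1 call without any 1 of the 4 runs (adjusted p = 0.0709 to 0.184).

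After the switch no M protein is made, apart from reuse of M amino acids, and a higher M/L ratio in LPS cells is relative to the middle of the proteome. Among the highest pre-existing changes were Arpp19, a phosphatase inhibitor of mitosis, with 0.967 and 1.10 in LPS cells, against 0.283 and 0.318 in mock cells (log2 1.78 ± 0.24, adjusted p = 5.71e-06), and the nuclear protein Nucks1, with 1.04 and 1.14 in LPS cells, against 0.399 and 0.437 in mock cells (log2 1.39 ± 0.14, adjusted p = 3.99e-08). Arpp19 rested on 1 unique peptide. Serpinb6, a protease inhibitor, had 0.812 and 0.838 in LPS cells, against 0.348 and 0.287 in mock cells (log2 1.38 ± 0.13, adjusted p = 7.56e-09).

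The H channel was not empty before the label was given. The median scaled H/L at 0 h was 0.142 and 0.128, and of the 12 highest new changes 9 had a mean mock H/L at 24 h below the mean of these medians. For Irg1 the 0 h values were 0.0588 and 0.0389 and for Ccl5 0.103 and 0.0359. The folds of new protein of these therefore rest on mock values near the background of the channel. With each protein's own mean H/L at 0 h subtracted, 31 of 2384 proteins were called in new protein, 25 higher and 6 lower.

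The effect of LPS at 24 h minus its mean effect at 9 and 12 h was tested for 2960 proteins. In total protein 300 passed (10.1%), 98 higher (3.31%) and 202 lower (6.82%), and in new protein 17 passed (0.574%), 7 higher (0.236%) and 10 lower (0.338%). Each time had mock runs of its own. Il1b, the precursor of the fever-inducing interleukin-1 beta, had a total log2 change of 3.77 and 3.52 at 9 h (replicate pairs 1 and 2), 3.35 and 3.87 at 12 h and 0.46 and 0.28 at 24 h. The excess was smaller at 24 h, a difference of -3.26 ± 0.47 (adjusted p = 4.16e-05). Its scaled total at 12 h was 2.54 and 2.80 in LPS cells, against 0.250 and 0.191 in mock cells, and at 24 h 0.694 and 0.657 in LPS cells, against 0.505 and 0.540 in mock cells. Il1a, its sister cytokine, differed by -2.36 ± 0.42 (adjusted p = 5.09e-04), with 2.81 and 2.57 at 12 h and 0.10 and 0.86 at 24 h. In the new fraction the antiviral enzyme Rsad2 (viperin) differed by -1.41 ± 0.25 (adjusted p = 0.00640), a call lost without LPS replicate 1 or mock replicate 2 (adjusted p = 0.0522 and 0.116). Total Rsad2 at 24 h rose by 0.92 ± 0.21 (adjusted p = 9.91e-04).

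The LPS effect was higher at 24 h for other proteins. Acsl1 had total changes of 0.92 and 1.15 at 9 h, 1.50 and 1.63 at 12 h and 2.58 and 2.54 at 24 h, a difference of 1.26 ± 0.08 (adjusted p = 6.18e-10). Complement C3 had -0.39 and -0.56 and -0.01 and -0.04 at 9 and 12 h and 1.00 and 1.14 at 24 h, a difference of 1.32 ± 0.18 (adjusted p = 1.75e-05). New Csf1r, through which macrophage growth factors act, had log2 changes of -1.93 and -2.09 at 9 h and 0.04 and 0.32 at 24 h, a difference of 1.63 ± 0.27 (adjusted p = 0.00306). New Glrx, a glutaredoxin, differed by 2.02 ± 0.38 and new Pla2g7, which breaks down platelet-activating factor, by 1.33 ± 0.19 (adjusted p = 0.00785 and 8.20e-04). The Glrx call was lost without LPS replicate 1, LPS replicate 2 or mock replicate 2 (adjusted p = 0.0522, 0.0728 and 0.105).

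For other proteins the gap below mock cells was wider at 24 h. Impdh1 had total changes of -0.38 and -1.35, -1.10 and -1.53 and -3.67 and -4.03 at 9, 12 and 24 h, a difference of -2.76 ± 0.46 (adjusted p = 4.52e-04). The scaled total of Impdh1 at 12 h was 0.400 and 0.537 in LPS cells, against 0.859 and 1.55 in mock cells, and at 24 h 0.341 and 0.376 in LPS cells, against 4.36 and 6.13 in mock cells, so the higher mock values at 24 h made up most of the wider gap. Hist1h1c differed by -1.79 ± 0.19 (adjusted p = 6.51e-07). At 12 h it was 0.828 and 0.751 in LPS cells, against 1.32 and 1.44 in mock cells, and at 24 h 0.746 and 0.612 in LPS cells, against 3.32 and 5.02 in mock cells. New Hist1h1c made up 0.176 and 0.282 of these mock totals at 24 h. Why the pre-existing rest was above the mock totals at 12 h was not tested. Of 44 lysosomal hydrolases 30 had a lower LPS effect at 24 h by the test and none a higher one, with median total changes of -0.35, -0.42 and -0.92 at 9, 12 and 24 h over the 42 measured in all 12 runs. Man2b1, for one, was 0.740 and 0.751 at 9 h and 0.745 and 0.701 at 24 h in LPS cells, against 0.941 and 1.00 at 9 h and 1.51 and 1.53 at 24 h in mock cells, so its LPS values were about level while mock values were higher at 24 h. Of 53 oxidative phosphorylation proteins 11 had a lower effect at 24 h, with medians of -0.24, -0.30 and -0.61 over 50. Interferon-stimulated proteins had medians of 1.07, 1.37 and 1.67 over 49, and 11 of 51 passed the test upward and 2 downward. The run of LPS replicate 2 at 12 h had a run factor of 1.62, against 0.621 to 1.15 in the other 41 runs, and without it 298 proteins passed in total and 13 in new protein.

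**Figure D5:**
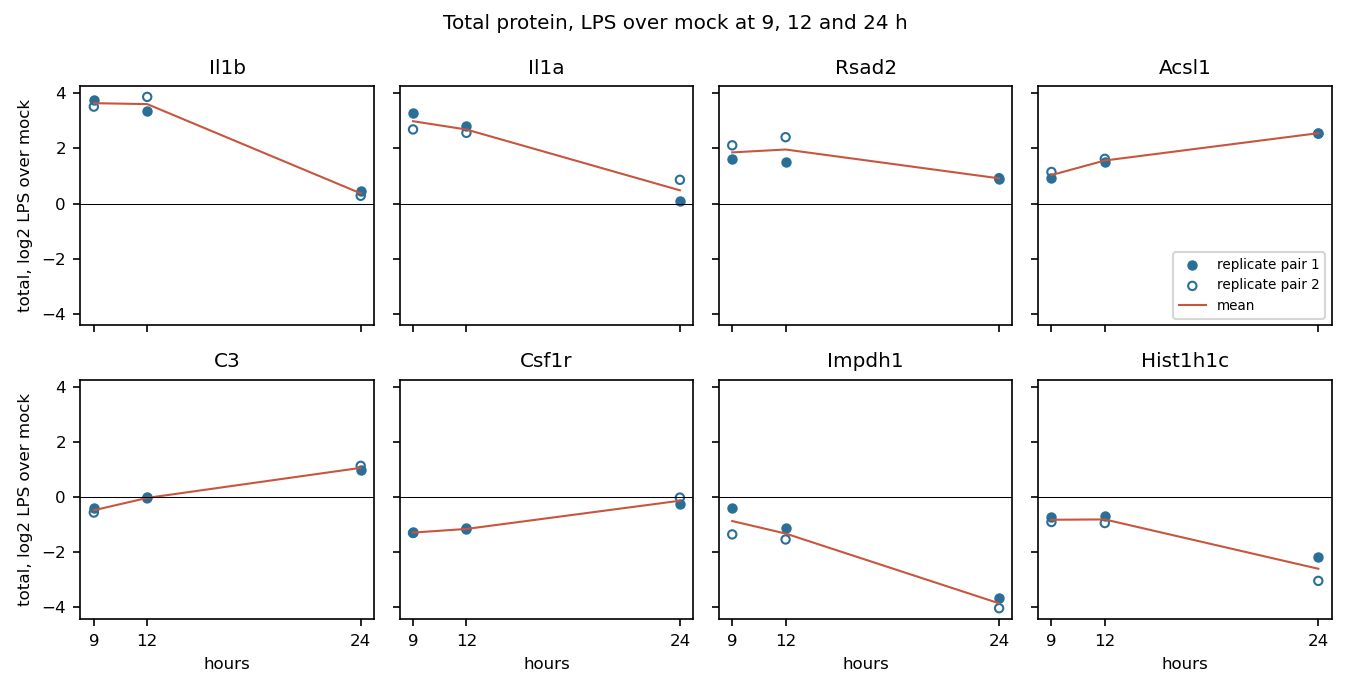
Points give the log2 change of LPS over mock in total protein for replicate pair 1 (filled) and 2 (open), and the line their mean, at 9, 12 and 24 h for 8 proteins. Il1b and Il1a come back towards 0 by 24 h, Acsl1 and C3 move up, Csf1r comes back from below 0, and Impdh1 and Hist1h1c move down.

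Some proteins had an H/L ratio in both runs of one treatment and in neither of the other, 75 in LPS cells and 45 in mock cells, against 3095 in all 4 runs. A missing ratio is not a level of 0, and those named here rested on 2 to 8 peptide pairs a run. Those seen in LPS cells included Il12b, a cytokine subunit that steers T cells, with scaled H/L of 0.597 and 0.970, the chemokine Cxcl2 with 0.708 and 0.508, the interferon-induced Herc6 with 0.935 and 0.951, and the signalling adaptors Irak2 and Tifa. Those seen in mock cells included Camp (cathelicidin) with 1.55 and 2.07, the lysosomal fucosidase Fuca1 with 1.10 and 1.30, the chemokine Ccl6 with 0.508 and 0.701 and the GM-CSF receptor chain Csf2rb with 0.979 and 0.572. These names were chosen after the list was seen.

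Markers of dendritic cells and of other cells were read in the same runs. The counts below stand beside 17.6% higher and 20.1% lower in total over all proteins tested. Of the dendritic cell identity list 6 proteins were tested (H2-Aa, H2-Ab1, Cd74, Itgax, Itgam and Sirpa), of which 3 fell and none rose. No kept group carried the names Flt3, Zbtb46 or Ciita, and H2-Eb1, Csf2ra, Csf2rb, Irf4, Irf8 and Spi1 lacked an H/L ratio in at least 1 of the 4 runs. The granulocyte list summed to 1.75% and 1.52% of iBAQ in LPS cells, against 2.10% and 2.27% in mock cells, and of its 11 tested members 1 rose and 5 fell. The granule proteases Elane, Prtn3 and Ctsg and the surface marker Ly6g had no H/L ratio in any of the 4 runs. The largest falls there were the granule proteins Ngp, with 0.391 and 0.396 in LPS cells, against 2.83 and 2.63 in mock cells, and Ltf, with 0.635 and 0.436 in LPS cells, against 2.81 and 2.68 in mock cells, which changed by -2.79 ± 0.08 and -2.38 ± 0.13 (adjusted p = 8.41e-18 and 8.25e-13), while Epx, Prg2 and S100a9 were not called. Hp, a haemoglobin scavenger stored in granulocytes and made on inflammation, rose by 2.04 ± 0.21 (adjusted p = 3.35e-08). The macrophage list summed to 0.87% and 0.65% in LPS cells, against 1.82% and 1.21% in mock cells, with 3 of 9 higher and 5 lower. Of erythroid, platelet and lymphocyte markers Pf4, Ca2 and Bst1 were tested, and Pf4 fell, a call lost without LPS replicate 2, mock replicate 1 or mock replicate 2 (adjusted p = 0.176, 0.0554 and 0.0975). The erythroid and platelet list summed to 0.00717% and 0.0113% in LPS cells, against 0.00847% and 0.0186% in mock cells. The part of other cells in the changes above was not tested.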

How the data were processed

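Per the labels' protocols, mock and LPS cells were lysed in urea, lysates were cleared by centrifugation, and the proteins of each culture were mixed with an unlabelled sample and digested with trypsin. Per the file headers the deposited table has the columns that MaxQuant writes, and the submitters' processing notes list the build mm9. No source used here gives the search settings. Each run has, per protein group, the deposited ratios M/L, H/L and H/M as measured, the deposited ratios rescaled by the search software, counts of peptide pairs behind each deposited ratio, and deposited channel intensities and iBAQ intensities.

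Reverse (90), contaminant (97) and site-only (216) groups were removed. A ratio needed a count of at least 2 pairs, which every deposited ratio had. Each run was scaled by its factor: un-normalised M/L and H/L were added for the 2472 groups with both in every trypsin run, and their median was the divisor. Log2 values were fitted with limma 3.58.1 in R 4.3.3 over all 42 trypsin runs (21 groups of 2), so that the groups share an estimate of spread, without a replicate block. Proteins with a value in all 4 runs at 24 h were tested, and p-values were adjusted by Benjamini-Hochberg over all of them. A protein was called at an adjusted p under 0.05 with the same sign in both replicate pairs. For the difference between times only the adjusted p was used.

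Named proteins are those with the largest called changes in each comparison, up to 4 of each gene list, and the most abundant by iBAQ. Not every protein under this rule is reported here. The members and lists were chosen with earlier results of these data known. Gene names are those of the table. Of 5899 kept groups 5321 names were current symbols, 421 matched a synonym, 42 did not match, and 239 carried several names. Alternatives were other run scalings, the rescaled ratios, other count minimums, the replicate block, each run left out, another variance model, intensities, and subtraction of H/L at 0 h.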

Additional observations from a re-analysis of the deposited data

Results flagged for a closer look

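The effect of LPS at 24 h differed from its mean effect at 9 and 12 h for 19 named results, by the limma test of that difference (adjusted p under 0.05). All values here are log2 differences.

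In total protein the effect was higher at 24 h for Acsl1 (1.26), C3 (1.32), Slfn1 (1.23), a growth regulator induced on activation, and Ncor1 (1.20), a transcriptional co-repressor. Ncor1 was near mock at 24 h (0.03 and 0.19) and below it at 9 h (-1.36, replicate pair 2 alone) and 12 h (-0.79 and -0.86). Its mock total was 4.12 at 9 h (replicate 2 alone), against 1.07 and 0.935 at 24 h. It was lower at 24 h for Impdh1 (-2.76), Hist1h1c (-1.79), Cst3 (-3.02), Il1b (-3.26) and Il1a (-2.36). Cst3 had no total in mock replicate 2 at 9 h or in LPS replicate 2 at 12 h. In replicate pair 1 at 12 h its LPS value lay above mock (1.12). The Cst3 difference was lost without LPS replicate 2 or mock replicate 1, the Slfn1 difference without mock replicate 2, and the Ncor1 difference without LPS replicate 1, LPS replicate 2 or mock replicate 2.

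In new protein it was higher at 24 h for Acsl1 (1.46), C3 (1.52), Glrx (2.02), Csf1r (1.63) and Pla2g7 (1.33). It was lower for Mmp12 (-1.46), C1qb (-1.60), Il1b (-3.06), Il1a (-2.77) and Rsad2 (-1.41). In new protein, the Acsl1 and Il1a differences were lost without any 1 of the 4 runs at 24 h (adjusted p = 0.109 to 0.167 and 0.0970 to 0.453). The Mmp12 difference was lost without LPS replicate 1 (-0.97, adjusted p = 0.351), mock replicate 1 or mock replicate 2 (adjusted p = 0.0595 and 0.149), that of Il1b without LPS replicate 1 or mock replicate 1 (adjusted p = 0.0522 and 0.0979), and that of C3 without LPS replicate 1 or mock replicate 2 (adjusted p = 0.103 and 0.0970). Glrx lost it without LPS replicate 1, LPS replicate 2 or mock replicate 2, and Rsad2 without LPS replicate 1 or mock replicate 2. Leaving out 1 run at 24 h gave 4 to 9 calls for new protein, against 17 with all 4.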

How the results depend on the processing

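The counts of called proteins moved with the run factor and with which runs entered. Main counts were 1169 for total, 315 for new and 1190 for pre-existing protein, 261 for H/M, and 300 (total) and 17 (new) for the difference between times. With no run factor they were 112, 181 and 28 for total, new and pre-existing, and 2 and 0 between times, and of the calls for total 83.0% were higher, against 46.7% with the factor. With no run factor and a replicate block, an alternative chosen after seeing the data, they were 1081, 454 and 873, and 64 and 10 between times, with 66.6% of pre-existing calls higher, against 27.0%. The deposited normalised ratios gave 349, 169 and 1622, 106 for H/M, and 11 and 0 between times. Summed intensities gave 605, 160 and 675, 113 for H/M, and 75 and 1 between times. The 4 runs at 24 h alone gave 610, 519 and 418, and 461 for H/M. Subtracting H/L at 0 h left 31 for new protein and 0 between times. Beside the counts of 0 between times by limma, 47 (no run factor), 77 (normalised ratios) and 34 (0 h subtracted) proteins had an unadjusted p under 0.05. Leaving out 1 run gave 895 to 979 for total, 183 to 212 for new, 939 to 1020 for pre-existing, 161 to 182 for H/M, 180 to 289 and 4 to 9 between times. Leaving out LPS replicate 2 at 12 h, also chosen after seeing the data, gave 298 and 13 between times. A count minimum of 5, at least 2 unique peptides, a trended and robust variance, and M and H centred separately kept each number of calls, both directions together, within 1.5 times. By direction, M and H centred separately gave 578 pre-existing calls higher, against 321, and 40 H/M calls lower, against 17. Deviations of runs with the same number correlated at 0.29, 0.27 and 0.36 for total, new and pre-existing protein, over 2 pairs only, and the labels do not say what the number marks. A replicate block gave 1338, 391 and 1352 calls, 313 for H/M, and 498 and 20 between times.

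Of 12642 values of named proteins under these alternatives 11264 kept direction and side of the threshold, 1140 lost the call, 222 gained one and 16 reversed. The reversals were, in total protein, Fabp5 with no run factor (0.01, with or without the block), Fdps with normalised ratios (-0.06) and Icam1 with intensities (-0.19). In pre-existing protein they were Ppia with normalised ratios (0.12) and, with intensities, Mmp12 (0.11), C3 (0.23), Csf1r (0.41), Hmox1 (0.53) and Eif2ak2 (-0.08). Intensities also reversed H/M of Csf1r (-0.37) and Hk2 (-0.26). Between times Sqstm1 reversed with normalised ratios (0.02) and intensities (0.04), Mmp12 in total with intensities (0.04) and new Ass1 with 0 h subtracted (-0.26). The cause was not tested. Protein ratios near the 0 h background of H limit the folds and the shares of new protein.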
